A study of Mus musculus with 24 samples.

Results

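Committed progenitors of mouse bone marrow were compared with the LSK cells that stand above them in the blood cell hierarchy. The comparison takes 12 of the 24 arrays of the series, 6 from progenitors and 6 from LSK cells, and these were chosen by their labels alone. The progenitors are L-S-K+ cells, negative for lineage markers and for Sca-1 and positive for the stem cell factor receptor c-Kit. The LSK cells are lineage-negative and positive for both Sca-1 and c-Kit. Each cell type came from primary bone marrow of C57Bl/6 mice (B6) and of DBA2 mice (D2), 2 inbred strains, and this gave 4 groups of 3 arrays. No treatment or engineered allele is named for any group, and the labels used here give no age or sex and do not say whether the 3 arrays of a group stem from separate animals or pools. Each p-value therefore measures only the spread between these arrays, which may be technical. The remaining 12 arrays, of Gr1+ myeloid and Ter119+ erythroid marrow cells, entered the normalization, the detection filter, the choice of probe and the common fit. Beyond that they are used here only to place a gene's level. A gene detected in Gr1+ or Ter119+ cells alone could therefore count as tested.

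Blood formation starts from stem cells that divide rarely and can make every lineage. The LSK gate holds these stem cells together with multipotent progenitors that have lost long-term self-renewal. Cells that lose Sca-1 and keep c-Kit are a mixture of progenitors already restricted to granulocytes and monocytes, to red cells and megakaryocytes, or to both branches, and most of them divide actively. Commitment to red cells is driven by the transcription factors GATA1 and KLF1, and commitment to granulocytes and monocytes by PU.1 and the C/EBP family.

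Total RNA was labelled with biotin and read on single-colour Illumina bead arrays, and values below are background-corrected, quantile-normalized log2 intensities. One unit is a doubling, values near 4.2 lie at background, and the levels of different genes cannot be set against each other because each probe has its own brightness. A probe counted as detected at a detection p under 0.01. The share of probes detected ran from 17.5% to 26.6% on the progenitor arrays and from 12.6% to 26.8% on the LSK arrays, lowest on D2 LSK replicate 2 and next on D2 progenitor replicate 1. The lowest normalized value that counted as detected ran from 4.59 to 6.36 between the arrays of the series. A gene missed on 1 array, as where 5 of 6 LSK arrays detected it, therefore need not be lower there. The first principal component, with 47.6% of the variance, separated all 6 progenitor arrays from all 6 LSK arrays. Neither the labels nor the files name a batch, so none could be tested.

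The sort itself could be checked in part. Kit, which encodes c-Kit and was used to sort both cell types, was detected on all 12 arrays, at 8.88, 9.40 and 9.55 (lowest, median and highest) in progenitors and 9.94, 10.07 and 10.42 in LSK cells. No probe is named for Ly6a, the gene of Sca-1. The LSK markers Meis1 and Cd34 were detected on all 12 arrays and Flt3 on none. Mecom was detected on 3 arrays of each cell type and Hlf on 3 progenitor and 4 LSK arrays. Of the progenitor markers, Mpo, Elane, Prtn3, Ctsg, Gata1, Klf1, Epor and Car1 were each detected on all 6 progenitor arrays. Mpo, Elane, Prtn3 and Ctsg were also detected on all 6 LSK arrays, Klf1, Epor and Car1 on 5, and Gata1 on none. Cebpa and Csf2rb were detected on no progenitor or LSK array.

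Of 7925 genes tested, 3379 (42.6%) differed between progenitors and LSK cells at an adjusted p under 0.05, 1702 (21.5%) higher and 1677 (21.2%) lower in progenitors. By at least 2-fold, 384 were higher and 521 lower. For 1505 genes (19%) the 6 progenitor arrays did not overlap the 6 LSK arrays, 812 (10.2%) with progenitors above and 693 (8.74%) with progenitors below. Each count for a gene group below is to be read against these shares. The gene lists were chosen with earlier results of these data known. A count that differs from these shares is therefore a description and no independent test. The median difference over all genes was 0.03. It became -0.24 when arrays were scaled to their median and -0.33 when scaled to their 75th percentile, and the share of calls that were higher in progenitors, 50.4% as reported, became 36.2% and 27.0%. Small differences are thus relative to where the centre of an array is set. Among the 384 genes at least 2-fold higher in progenitors, 213 had their highest mean of the 4 cell types in progenitors themselves, 106 in Ter119+ and 65 in Gr1+ cells. Among the 521 at least 2-fold lower, 353 were highest in LSK cells. Over all 7925 genes tested, 2194 were highest in progenitors, 1903 in LSK cells, 2295 in Gr1+ and 1533 in Ter119+ cells. Choosing genes by their difference from LSK cells itself moves these shares, so they are a description.

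**Figure D1:**
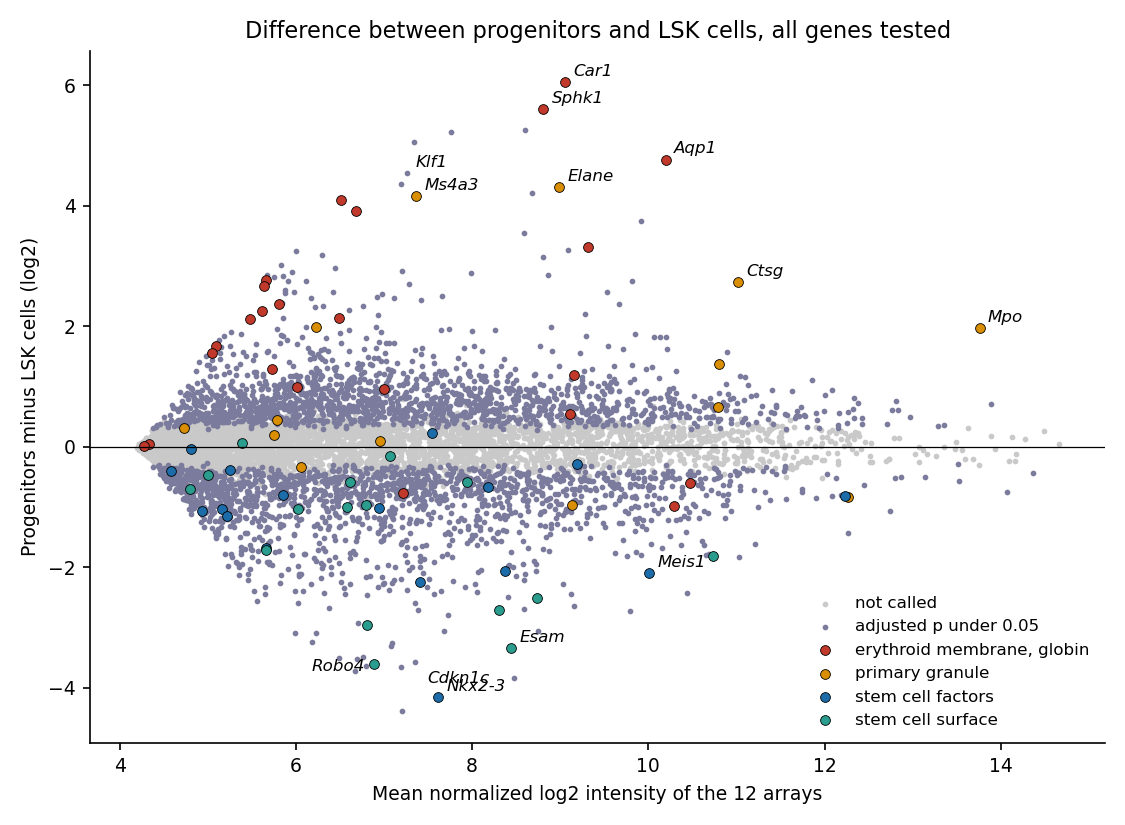
Difference between progenitors and LSK cells on the log2 scale (vertical axis) against the mean normalized log2 intensity over the 12 arrays (horizontal axis) for the 7925 genes tested. Grey-violet points passed at an adjusted p under 0.05 and larger coloured points are members of 4 gene groups, with Car1 at 6.05 highest among all genes and the stem cell groups mostly below 0.

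The largest difference of any gene tested was that of Car1, a red cell gene. Of 24 genes for globins and red cell membrane, channel and enzyme proteins, 19 were higher in progenitors and 1 lower, with a median difference of 1.89 against 0.03 over all genes, and 17 of them did not overlap between the 6 and 6 arrays. Car1, the carbonic anhydrase of early red cell precursors, stood at 11.90, 12.05 and 12.38 in progenitors and at 4.49, 6.19 and 6.82 in LSK cells. Every progenitor array lay far above every LSK array, and the difference was 6.05 ± 0.25 (SE), a 66.2-fold change (adjusted p = 6.38e-15). Sphk1, the sphingosine kinase that red cells use to make sphingosine 1-phosphate, stood at 11.13, 11.49 and 12.33 in progenitors and 5.20, 6.13 and 6.74 in LSK cells, a 48.6-fold difference (5.60 ± 0.21). Aqp1, the red cell water channel, reached 12.23, 12.64 and 12.82 in progenitors and 7.32, 7.75 and 8.42 in LSK cells, a 27.1-fold difference (4.76 ± 0.23), and its other 2 probes gave 4.94 and 3.82. All 3 genes were apart in both strains.

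Membrane proteins followed. Kel, the Kell blood group protease, stood at 7.89, 8.58 and 9.01 in progenitors and at 4.22, 4.43 and 4.91 in LSK cells, where 1 of 6 arrays detected it (4.10 ± 0.20, 17.1-fold). Sptb, the beta chain of the spectrin skeleton, stood at 8.36, 8.64 and 8.86 in progenitors and at 4.30, 4.81 and 5.12 in LSK cells, where 3 of 6 arrays detected it (3.91 ± 0.19, 15.1-fold). For both genes the low group lay at or near background, so the fitted fold depends on the background correction, as for every gene below that is given with few detected arrays. Blvrb, a flavin and biliverdin reductase abundant in red cells, was 9.97-fold higher (3.32 ± 0.19) and was detected on all 12 arrays. In Ter119+ cells the mean was higher still for Kel (11.2), Sptb (11.9), Aqp1 (13.1) and Blvrb (11.9), but lower than in progenitors for Car1 (10.1) and Sphk1 (10.1).

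Other genes of the group were not higher. Hba-a1, alpha globin, stood at 9.59, 10.13 and 11.20 in progenitors and 9.78, 10.89 and 11.50 in LSK cells, a difference of -0.60 ± 0.28 (adjusted p = 0.0899), and averaged 14.6 in Ter119+ cells. Slc4a1, the band 3 anion exchanger, differed by -0.77 ± 0.34 (adjusted p = 0.0744), Tmod1 by 0.01, and Hbb-b2 was detected on neither cell type. Hbb-bt, a beta globin whose sequence is close to that of its neighbours, was lower in progenitors, at 8.95, 9.65 and 11.18 against 9.58, 11.00 and 11.46 in LSK cells (-0.99 ± 0.34, adjusted p = 0.0221). Its groups overlapped, and the call ended with median scaling (adjusted p = 0.113), 75th percentile scaling (0.0908), no detection filter (0.086), the mean of its probes (0.12), the 12 arrays alone (0.0737) and without any of 5 single arrays (0.0576 to 0.0734). Hbb-b1 has no named probe. In bulk RNA of a sorted mixture, more cells of one kind and more RNA per cell cannot be told apart, here and in all that follows.

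Among 10 red cell transcription factors, 4 were higher and 1 lower (median 0.15). Klf1, the activator of globin and other red cell genes, stood at 8.76, 9.69 and 10.18 in progenitors and at 4.30, 5.02 and 5.57 in LSK cells, with no overlap (4.54 ± 0.23, 23.3-fold, adjusted p = 1.98e-13). Gata1, the master factor of the red cell and megakaryocyte branch, was detected on all 6 progenitor arrays (5.92, 6.22 and 6.38) and on no LSK array (4.27, 4.35 and 5.99), and was at least 2.30-fold higher, although the highest LSK value lay within the progenitor range. Its repressor partner Gfi1b was 2.99-fold higher (1.58 ± 0.19), with progenitors at 9.54 to 10.14 and LSK cells at 7.19 to 8.78. Cited4, a partner of the co-activator CBP, was detected on all progenitor arrays and no LSK array and was at least 5.37-fold higher. Nfe2, which drives platelet and globin genes, was lower in progenitors, at 8.93, 9.36 and 9.44 against 9.82, 10.12 and 10.32 in LSK cells (-0.84 ± 0.18, adjusted p = 0.000485). Of the factors that stem cells and early red cell progenitors share, Tal1 (0.22 ± 0.21, adjusted p = 0.427) and Gata2 (-0.28 ± 0.20, adjusted p = 0.285) did not pass.

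Of 18 genes for heme synthesis and iron handling, 10 were higher and none lower (median 0.75), and for 8 the arrays did not overlap. Tfrc, the transferrin receptor, stood at 8.93, 9.20 and 9.67 in progenitors and 6.91, 7.30 and 7.80 in LSK cells (1.94 ± 0.15, 3.85-fold). Hebp1, a heme-binding protein, was 3.34-fold higher (1.74 ± 0.21), Slc25a38, the mitochondrial glycine carrier for heme, 3.09-fold (1.63 ± 0.14), and Glrx5, an iron-sulphur cluster protein, 3.01-fold (1.59 ± 0.25). Of the 2 enzymes for the first step of heme synthesis, Alas1, the form of all tissues, was 2.97-fold higher (1.57 ± 0.15). Alas2, the red cell form, was detected on 4 arrays of each cell type and differed by -0.15 ± 0.22 (adjusted p = 0.611), against a mean of 12.4 in Ter119+ cells.

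**Figure D2:**
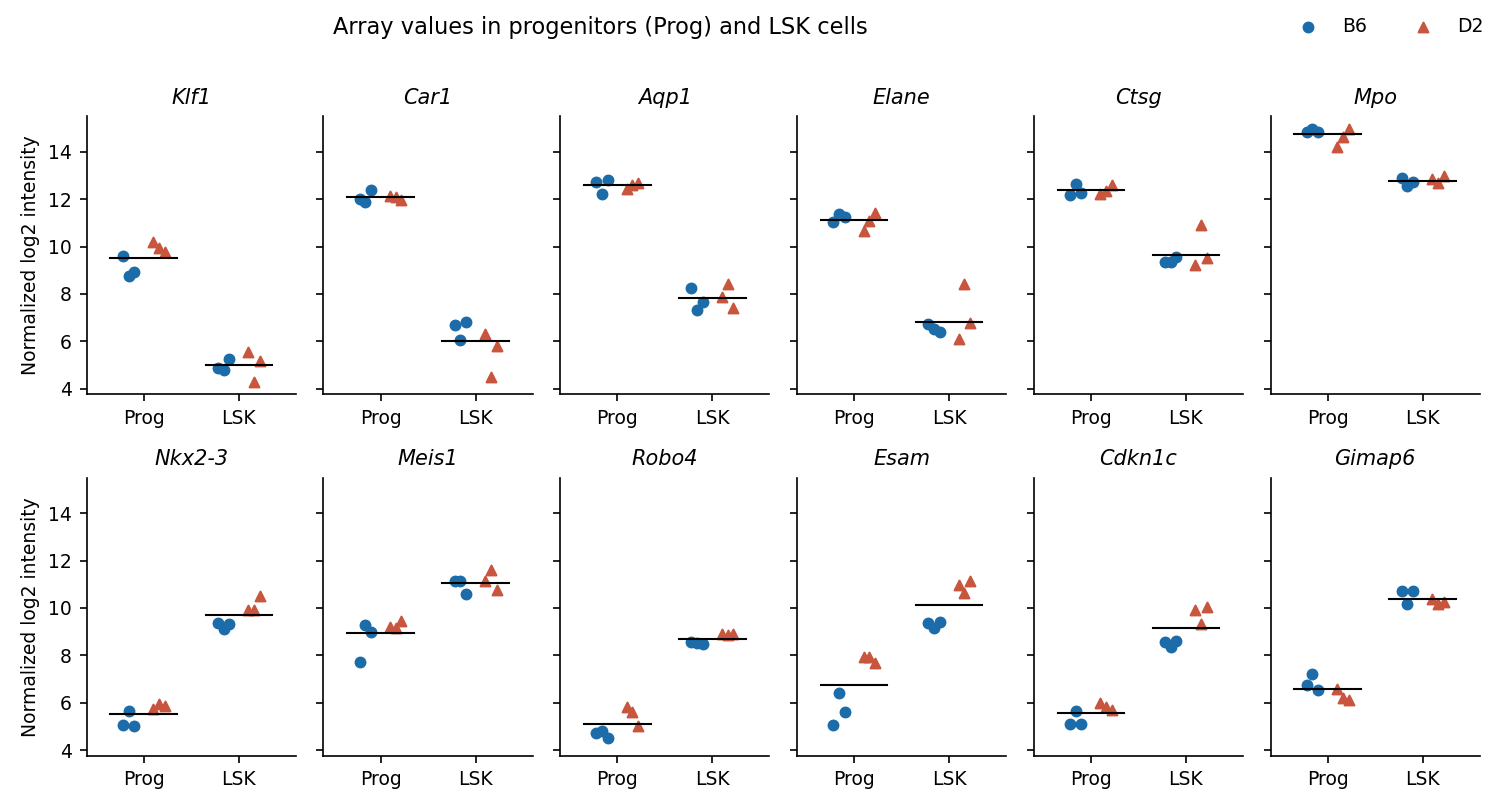
Normalized log2 intensity of 12 genes on each array, with progenitors (Prog) left of LSK cells, B6 arrays as blue circles, D2 arrays as red triangles and the mean of 6 arrays as a bar. In the top row, red cell and granule genes, every progenitor array lies above every LSK array, and in the bottom row, stem cell genes, every progenitor array lies below.

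Granule genes of the neutrophil branch formed the next group. Of 14 primary granule genes, 7 were higher and 2 lower (median 0.56), and 6 of the higher ones did not overlap. Elane, neutrophil elastase, stood at 10.67, 11.17 and 11.43 in progenitors and 6.12, 6.62 and 8.44 in LSK cells (4.31 ± 0.27, 19.9-fold, adjusted p = 1.65e-11). Ctsg, cathepsin G, stood at 12.18, 12.32 and 12.64 in progenitors and 9.20, 9.44 and 10.90 in LSK cells (2.73 ± 0.21, 6.63-fold). Mpo, myeloperoxidase, was bright in both, at 14.20, 14.85 and 14.97 in progenitors and 12.56, 12.79 and 12.98 in LSK cells (1.96 ± 0.15, 3.90-fold). In each of the 3 genes the progenitor arrays lay above all LSK arrays. For Mpo the brightest probe gave the smallest difference, and its other 3 probes gave 2.56, 3.34 and 3.91. Prtn3, proteinase 3, was 2.59-fold higher (1.37 ± 0.23) and the protease inhibitor Cst7 3.95-fold (1.98 ± 0.15). Ms4a3, a membrane protein of granulocyte and monocyte progenitors, was 17.9-fold higher by its brightest probe (4.16 ± 0.22), at 9.12 to 10.23 against 4.72 to 5.80, whereas its other probe gave 0.89. The brightest probe was detected on 4 of 6 LSK arrays.

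The lysozymes, which mark later neutrophils and macrophages, went the other way. Lyz1 stood at 11.15, 11.64 and 13.32 in progenitors and between 12.29 and the value of D2 replicate 2 in LSK cells, with a median of 12.73 (-0.84 ± 0.18, adjusted p = 0.000756), and Lyz2 was also lower (-0.96 ± 0.27, adjusted p = 0.00671). The progenitor and LSK arrays overlapped for both, with D2 progenitor replicate 3 above every LSK array. Both averaged over 14 in Gr1+ cells, and Lyz1 and Lyz2 are near-identical copies whose probes may share signal. Lyz2 did not pass without D2 LSK replicate 2 and D2 progenitor replicate 1 together (adjusted p = 0.0581). In D2 alone neither lysozyme passed, with Lyz1 at -0.50 (adjusted p = 0.16) and Lyz2 at -0.44 (adjusted p = 0.446).

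Upstream sequence is shown for 5 genes whose levels carry the red cell and granule results, Klf1, Aqp1, Elane, Mpo and Ctsg. Each is the 250 bases before the annotated start on the gene's own strand, from RefSeq with build GRCm38.p6, at chr8:84901732-84901981 (plus strand), chr6:55336049-55336298 (plus), chr10:79886062-79886311 (plus), chr11:87793534-87793783 (plus) and chr14:56102575-56102824 (minus). Capitals mark matches on either strand to the GATA motif (AGATAA or TGATAA) and the KLF motif (CCNCNCCC) in the first 2 sequences, and to the PU.1 motif (GAGGAA) and the C/EBP motif (TTGCNNAA) in the last 3.
Klf1: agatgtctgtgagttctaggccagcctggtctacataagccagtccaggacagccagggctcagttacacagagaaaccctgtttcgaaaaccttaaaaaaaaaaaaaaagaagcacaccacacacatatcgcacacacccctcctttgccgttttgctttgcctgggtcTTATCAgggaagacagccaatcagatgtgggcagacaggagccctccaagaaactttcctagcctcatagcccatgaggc
Aqp1: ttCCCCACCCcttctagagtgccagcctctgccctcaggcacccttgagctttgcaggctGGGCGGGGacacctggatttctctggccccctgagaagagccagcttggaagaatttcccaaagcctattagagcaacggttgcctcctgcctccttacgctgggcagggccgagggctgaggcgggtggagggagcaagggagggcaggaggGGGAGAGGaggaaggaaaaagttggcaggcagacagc
Elane: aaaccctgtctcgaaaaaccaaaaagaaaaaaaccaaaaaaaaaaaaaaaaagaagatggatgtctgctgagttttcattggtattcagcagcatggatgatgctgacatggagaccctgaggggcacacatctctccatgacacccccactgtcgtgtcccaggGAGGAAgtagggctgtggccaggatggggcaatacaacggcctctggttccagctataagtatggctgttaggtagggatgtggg
Mpo: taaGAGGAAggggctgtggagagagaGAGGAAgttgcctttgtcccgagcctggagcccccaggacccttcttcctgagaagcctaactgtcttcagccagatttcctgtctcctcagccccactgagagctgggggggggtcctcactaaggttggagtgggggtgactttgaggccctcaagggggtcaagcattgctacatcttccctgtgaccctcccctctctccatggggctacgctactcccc
Ctsg: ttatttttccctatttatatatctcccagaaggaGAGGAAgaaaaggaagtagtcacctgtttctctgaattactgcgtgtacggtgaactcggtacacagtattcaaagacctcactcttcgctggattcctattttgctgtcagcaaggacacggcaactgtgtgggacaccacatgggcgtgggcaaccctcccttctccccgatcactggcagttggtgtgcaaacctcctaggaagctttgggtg
The Klf1 window held 1 GATA match, beginning 80 bases before the start, and the Aqp1 window 3 KLF matches, the last of which shares 1 base with a PU.1 match. The Elane window held 1 PU.1 match, the Mpo window 2 and the Ctsg window 1, and none of the 3 held a C/EBP match. Of 33 red cell and heme genes higher in progenitors, 28 were matched to the table, with 40 windows. A GATA match lay in 32.5% of these windows against 16.6% of all 32851 windows, and a KLF match in 72.5% against 45.9%. A PU.1 match lay in 15% against 23.2%, and a C/EBP match in 2.5% against 9.56%. A further motif, RUNX (TGTGGT), was matched in 12.5% against 14.05%. The 7 primary granule genes higher in progenitors had 8 windows, of which 5 (62.5%) held a PU.1 match against 23.2% of all windows. A RUNX match lay in 37.5% against 14.05%, and a KLF match in 50% against 45.9%. A C/EBP match lay in 12.5% against 9.56%, and a GATA match in 0% against 16.6%. The stem cell genes that were lower in progenitors, 18 of 26 matched with 24 windows, held a GATA match in 8.33%, a KLF match in 66.7% and a PU.1 match in 29.2%. They held a C/EBP match in 0% and a RUNX match in 8.33%. A KLF share above that of all windows was thus found in the red cell and the stem cell set alike. A match describes the letters in the window and not the binding of a factor.

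Other myeloid branches showed smaller or patchier differences. Of 16 monocyte and macrophage genes, 4 were higher in progenitors and none lower (median 0.10). That is 25% higher, near the 21.5% over all genes, so the values below are those of single genes. F13a1, coagulation factor XIII chain A of monocytes and platelets, was 5.95-fold higher (2.57 ± 0.17), the low-affinity antibody receptor Fcgr3 4.37-fold (2.13 ± 0.20), Ly86 2.86-fold (1.52 ± 0.16) and the endotoxin co-receptor Cd14 1.74-fold (0.80 ± 0.20). F13a1 was detected on 4 of 6 LSK arrays, and Fcgr3 and Ly86 were each detected on 2 of 6. Fcgr3 stood at 6.03, 6.89 and 7.56 in progenitors and at 4.49, 4.64 and 5.56 in LSK cells, without overlap. Cd14 was detected on 2 progenitor arrays and 1 LSK array, and its call ended with no background correction (adjusted p = 0.0556), with the series matrix values (0.0556), with median scaling (0.564) and with 75th percentile scaling (0.703). Of the macrophage markers, C1qa, C1qc and Adgre1 were detected on no progenitor or LSK array, C1qb on no progenitor array and 1 LSK array, and Vcam1 on 3 progenitor arrays and 1 LSK array.

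Of 11 mast cell, basophil and eosinophil genes, 5 were higher and none lower (median 0.44). The count was 3 with median or 75th percentile scaling, 2 in B6 alone and 8 without D2 LSK replicate 2 and D2 progenitor replicate 1. Hdc, the histamine-making enzyme, was 5.67-fold higher (2.50 ± 0.27), with D2 progenitors at 5.84 to 7.29 against 4.21 to 6.18 in D2 LSK cells, and B6 progenitors at 10.98 to 11.29 against 7.15 to 7.96 in B6 LSK cells. Its other probe gave 1.04. The 2 strains thus stood at different levels, and the test of the strain difference gave an adjusted p of 0.078. Cpa3, the mast cell carboxypeptidase, was 5.02-fold higher (2.33 ± 0.20) and did not overlap. Fcer1a, the IgE receptor alpha chain, was 2.89-fold higher (1.53 ± 0.21), Alox5 1.65-fold (0.72 ± 0.14), each detected on 1 of 6 LSK arrays, and Mcpt8, a basophil protease, was detected on 3 progenitor arrays and on no LSK array. Alox5 and Mcpt8 did not pass with median or 75th percentile scaling (adjusted p from 0.602 to 0.93), and Mcpt8 also failed with no background correction (0.192), with the series matrix values (0.192), with no detection filter (0.0512) and without D2 progenitor replicate 2 (0.053).

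Megakaryocyte genes split. Of 11, 5 (45.5%) were higher and 3 (27.3%) lower in progenitors (median -0.12), against 21.5% and 21.2% over all genes. Their summed linear level, which the brightest probes lead, went opposite ways in the 2 strains. It was higher in B6 progenitors (1817 to 2314) than in B6 LSK cells (1331 to 1705). In D2 it was lower in progenitors (3120 to 3674) than in LSK cells (5472 to 6455). Treml1, a receptor of platelet granules, stood at 6.99, 7.41 and 7.69 in progenitors and 4.40, 5.81 and 6.33 in LSK cells (1.72 ± 0.22, 3.29-fold). It was detected on 5 of 6 LSK arrays. Gp5, a subunit of the von Willebrand factor receptor, was 3.11-fold higher (1.64 ± 0.18), and Gp1bb of the same receptor was detected on all progenitor arrays and no LSK array, at least 1.24-fold higher, and failed with median (adjusted p = 0.462) and 75th percentile (0.575) scaling. Pf4, platelet factor 4 (0.78 ± 0.19, detected on 1 of 6 LSK arrays), and Itga2b, the integrin CD41 (0.73 ± 0.15), were also higher. The higher count was 2 instead of 5 with median scaling and with 75th percentile scaling. Mmrn1, multimerin of platelet granules, was lower (-1.01 ± 0.15), and this came from one strain, with D2 progenitors at 4.69 to 5.65 against 6.73 to 7.67 in D2 LSK cells, whereas B6 values lay at background in both (4.18 to 4.32 against 4.19 to 4.25). The adhesion molecule Selp was lower by 1.99-fold (-1.0 ± 0.21), and Gp9, the smallest receptor subunit, by 1.40-fold (-0.49 ± 0.17). Gp9 failed with no detection filter (adjusted p = 0.0558) and without B6 LSK replicate 1 (0.073), B6 progenitor replicate 1 (0.0637) or D2 progenitor replicate 3 (0.0763).

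Among 12 myeloid transcription factors, 2 (16.7%) were higher and 4 (33.3%) lower (median 0.05), against 21.5% and 21.2% over all genes. Cebpe, the factor of late granule genes, stood at 7.22, 7.91 and 8.67 in progenitors and 5.04, 5.95 and 7.35 in LSK cells, with a slight overlap (1.90 ± 0.23, 3.73-fold), and its other 3 probes gave 0.84 to 1.87. Irf8, the monocyte and dendritic cell factor, was 1.73-fold higher (0.79 ± 0.18, detected on 3 of 6 LSK arrays), but failed with median (adjusted p = 0.543) and 75th percentile (0.695) scaling. The vitamin D receptor Vdr was 3.10-fold lower (-1.63 ± 0.17), Stat3 2.09-fold (-1.06 ± 0.25), Irf5 1.81-fold (-0.85 ± 0.18, detected on 2 of 6 progenitor arrays) and Cebpb 1.49-fold (-0.57 ± 0.19). Spi1, which encodes PU.1 (-0.05 ± 0.17, adjusted p = 0.832), Gfi1 (0.13 ± 0.20, adjusted p = 0.638) and Myb (0.24 ± 0.19, adjusted p = 0.326) did not pass.

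Of 13 growth factor receptors and regulators, 2 were higher and 6 lower (median -0.44). Epor, the erythropoietin receptor, stood at 6.40, 6.76 and 7.21 in progenitors and 4.30, 4.87 and 5.14 in LSK cells (1.95 ± 0.26, 3.87-fold), and Ifngr1, the ligand-binding chain of the interferon gamma receptor, was 3.94-fold higher (1.98 ± 0.22), at 7.61 to 8.32 against 4.32 to 6.79. Neither gene's arrays overlapped, and each gene was detected on 5 of 6 LSK arrays. Tgfbr2, the type II receptor for TGF-beta, was 2.33-fold lower (-1.22 ± 0.18), and Socs2, an inhibitor of cytokine signals, was detected on no progenitor array and on 4 LSK arrays. Ifngr2, the second chain of the interferon gamma receptor, was lower by the probe used (-0.65 ± 0.18), but another probe gave 0.15 and with the mean of its probes the call ended (adjusted p = 0.0869). Csf1r (0.34 ± 0.20, adjusted p = 0.169) and Csf2ra (0.02 ± 0.20, adjusted p = 0.95), receptor chains for macrophage and granulocyte-macrophage growth factors, did not pass.

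Genes of stem cell identity ran the opposite way. Of 17 stem cell transcription factors and regulators, 13 were lower in progenitors and none higher (median -1.02), and 8 did not overlap. Nkx2-3, a homeobox factor, stood at 5.01, 5.67 and 5.94 in progenitors and 9.13, 9.63 and 10.49 in LSK cells (-4.15 ± 0.19, 17.8-fold lower, adjusted p = 6.15e-14). Meis1, the HOX partner needed for stem cell maintenance, stood at 7.73, 9.17 and 9.44 in progenitors and 10.57, 11.14 and 11.62 in LSK cells (-2.10 ± 0.26, 4.30-fold lower), and a second kept probe gave -2.58. In both genes all progenitor arrays lay below all LSK arrays. HOXA genes were lower too, Hoxa5 4.73-fold (-2.24 ± 0.21), Hoxa7 4.17-fold (-2.06 ± 0.31) and Hoxa9 3.20-fold (-1.68 ± 0.12, detected on 3 of 6 progenitor arrays), and the HOXB genes Hoxb5 and Hoxb2 were each detected on no progenitor array and on 5 LSK arrays. The megakaryocyte and stem cell factors Gata2, Tal1, Etv6 and Mecom did not pass, Mecom at -0.05 ± 0.17 (adjusted p = 0.849) near background in both. Of the 32 genes listed, 15 had no kept probe and were not tested, Hlf, Erg and Fli1 among them.

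Of 16 stem cell surface genes, 13 were lower and none higher (median -1.02), and 7 did not overlap. Several are shared with endothelium. Robo4, a guidance receptor that holds stem cells in the niche, stood at 4.52, 4.91 and 5.81 in progenitors, detected on 2 of 6 arrays, and at 8.47, 8.70 and 8.91 in LSK cells (-3.62 ± 0.13, 12.3-fold lower). Esam, an adhesion molecule of junctions, stood at 5.06, 7.03 and 7.94 in progenitors and 9.14, 10.03 and 11.13 in LSK cells (-3.35 ± 0.22, 10.2-fold lower). Both strains showed the fall, although D2 arrays were higher than B6 arrays in both cell types. Emcn, endomucin, was 7.76-fold lower (-2.96 ± 0.14), the receptor Adgrl4 6.56-fold (-2.71 ± 0.20) and the receptor Gpr171 5.74-fold (-2.52 ± 0.24). Adgrl4 differed by -1.80 in D2 and -3.63 in B6, and the strain difference passed (adjusted p = 0.017). Cd27, a receptor lost on commitment, stood at 9.28, 9.61 and 10.58 in progenitors and 11.24, 11.75 and 11.77 in LSK cells (-1.81 ± 0.19). Cd34, which both gates contain, was lower (-0.58 ± 0.21), with overlapping arrays, and Cxcr4 did not pass (0.06).

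Imprinted genes, which are expressed from one parental copy and linked to stem cell quiescence, also fell. Of 8 tested, 6 were lower and none higher (median -0.75). Cdkn1c, the cyclin-dependent kinase inhibitor p57, stood at 5.10, 5.67 and 6.00 in progenitors and 8.35, 8.96 and 10.05 in LSK cells (-3.57 ± 0.15, 11.9-fold lower, adjusted p = 6.38e-15). Ndn, necdin, another brake on division, was 9.94-fold lower (-3.31 ± 0.20) and was detected on 4 of 6 progenitor arrays. Impact was 2.08-fold lower (-1.05 ± 0.15) and Igf2r lower by 0.70, Dlk1 was detected on no progenitor array and on 5 LSK arrays, and Phlda2 was lower only on average (-0.76 ± 0.20), at -1.64 in D2 and 0.12 in B6, a strain difference that passed (adjusted p = 0.033). Gnas did not pass, nor did Grb10, whose sign differed between the strains. H19, Igf2, Meg3 and 9 others of the 20 listed were not tested.

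Of 15 lymphoid priming genes, 5 were lower and none higher (median -0.42), against 21.2% lower over all genes. Il12a, an interleukin subunit, was 4.14-fold lower (-2.05 ± 0.13), with -1.31 in D2 and -2.78 in B6 (adjusted p of the strain difference 0.0024). Satb1, a chromatin organizer of lymphoid fate, was 3.22-fold lower (-1.69 ± 0.23), and Dntt, the DNA polymerase that marks lymphoid-primed cells, stood at 4.31, 4.51 and 4.77 in progenitors, detected on 1 array, and at 4.22, 6.52 and 7.38 in LSK cells, detected on 5 (-1.67 ± 0.22). The lowest LSK value of Dntt came from D2 LSK replicate 2, the array with the fewest detected probes, and lay at background. Notch1 (-0.78 ± 0.24) and Mef2c (-0.65 ± 0.19) were also lower, Notch1 with an adjusted p of 0.0544 in the 12 arrays fitted alone. In D2 alone Dntt (-0.83, adjusted p = 0.056), Notch1 (-0.54, adjusted p = 0.269) and Mef2c (-0.16, adjusted p = 0.714) failed. Il7r, Ikzf1 and Rag1 did not pass, and Rag1 was detected on neither cell type.

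The Gimap genes, small GTPases of lymphocytes and stem cells that lie side by side in the genome, were lower in 4 of 5 cases and higher in none (median -2.27). Gimap6 stood at 6.11, 6.55 and 7.20 in progenitors and 10.15, 10.32 and 10.73 in LSK cells (-3.83 ± 0.23, 14.3-fold lower). Gimap1 was 6.02-fold lower (-2.59 ± 0.22, its other probe -2.06) and Gimap8 4.82-fold (-2.27 ± 0.16, detected on 2 of 6 progenitor arrays). Gimap7 was detected on no progenitor array and on 3 LSK arrays, with a difference of 0.01 in D2 and -1.25 in B6. All these genes are related in sequence, and no probe was checked for matches to the other members.

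Interferon response genes were partly lower in progenitors. Of 31, 16 were lower and none higher (median -0.40), and 7 did not overlap. Oasl2, an antiviral sensor, was 4.33-fold lower (-2.11 ± 0.22), Gbp2, a GTPase, 3.65-fold (-1.87 ± 0.14), Ifitm1 3.59-fold (-1.85 ± 0.16), Rsad2 3.58-fold (-1.84 ± 0.16) and Ifitm3 2.92-fold (-1.55 ± 0.17). Ifitm3, a membrane protein that blocks virus entry, stood at 8.50, 8.99 and 9.38 in progenitors and at 10.23, 10.40 and 10.94 in LSK cells. Isg15 (-0.30), Irf7 (-0.12) and Stat2 (-0.09), a ubiquitin-like protein and transcription factors of the same response, did not pass. Of 11 class I histocompatibility genes, 9 were lower (median -0.76), led by H2-T23 at 9.23, 9.80 and 10.04 in progenitors against 10.53, 10.88 and 11.40 in LSK cells (-1.23 ± 0.11, 2.34-fold lower). The class I light chain B2m differed by -0.76 ± 0.16 and the peptide transporter Tap2 by -0.89 ± 0.16. The class I genes are near-identical copies that differ between these strains, and no probe was checked for variants.

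Class II antigen presentation genes were lower in 5 of 10 cases and higher in none (median -0.47), and within strains 2 passed in D2 and 7 in B6. Cd86, a co-stimulatory ligand, was detected on no progenitor array and on all LSK arrays, at least 2.34-fold lower. H2-Eb1 was 2.22-fold lower (-1.15 ± 0.24), H2-Ab1 1.88-fold (-0.91 ± 0.17), H2-DMa 1.73-fold (-0.79 ± 0.16) and the invariant chain Cd74 1.55-fold (-0.63 ± 0.23). Cd74 failed with no background correction and with the series matrix values (adjusted p = 0.235), no detection filter (0.085), the mean of its probes (0.0926), the 12 arrays alone (0.0513), without D2 LSK replicate 2 and D2 progenitor replicate 1 together (0.125) and without any of 7 single arrays (0.058 to 0.0992).

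Immediate early genes, which respond within minutes to growth factors, stress and handling, were mostly lower in progenitors. Of 15, 11 were lower and none higher (median -1.54), but only 3 did not overlap. Egr1 stood at 6.49, 8.27 and 10.29 in progenitors and 10.02, 11.14 and 12.22 in LSK cells (-2.73 ± 0.33, 6.61-fold lower). Zfp36, which destabilizes cytokine messages, was 5.48-fold lower (-2.45 ± 0.34), the phosphatase Dusp2 differed by -2.32 ± 0.21, Rgs1 was 4.85-fold lower (-2.28 ± 0.29) and Fos 4.45-fold (-2.15 ± 0.36). The summed linear level of the group spread widely within each cell type, at 2829, 5705 and 8034 in D2 progenitors against 9479, 18648 and 19696 in D2 LSK cells, and at 1110, 1404 and 1787 in B6 progenitors against 6707, 7248 and 9040 in B6 LSK cells. The groups did not overlap within either strain. The chemokine Ccl4, which the same stimuli induce, stood at 5.24, 6.86 and 9.75 in progenitors and 9.0, 10.11 and 11.55 in LSK cells (-3.07 ± 0.40), and its other probe gave -1.39. 

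**Figure D3:**
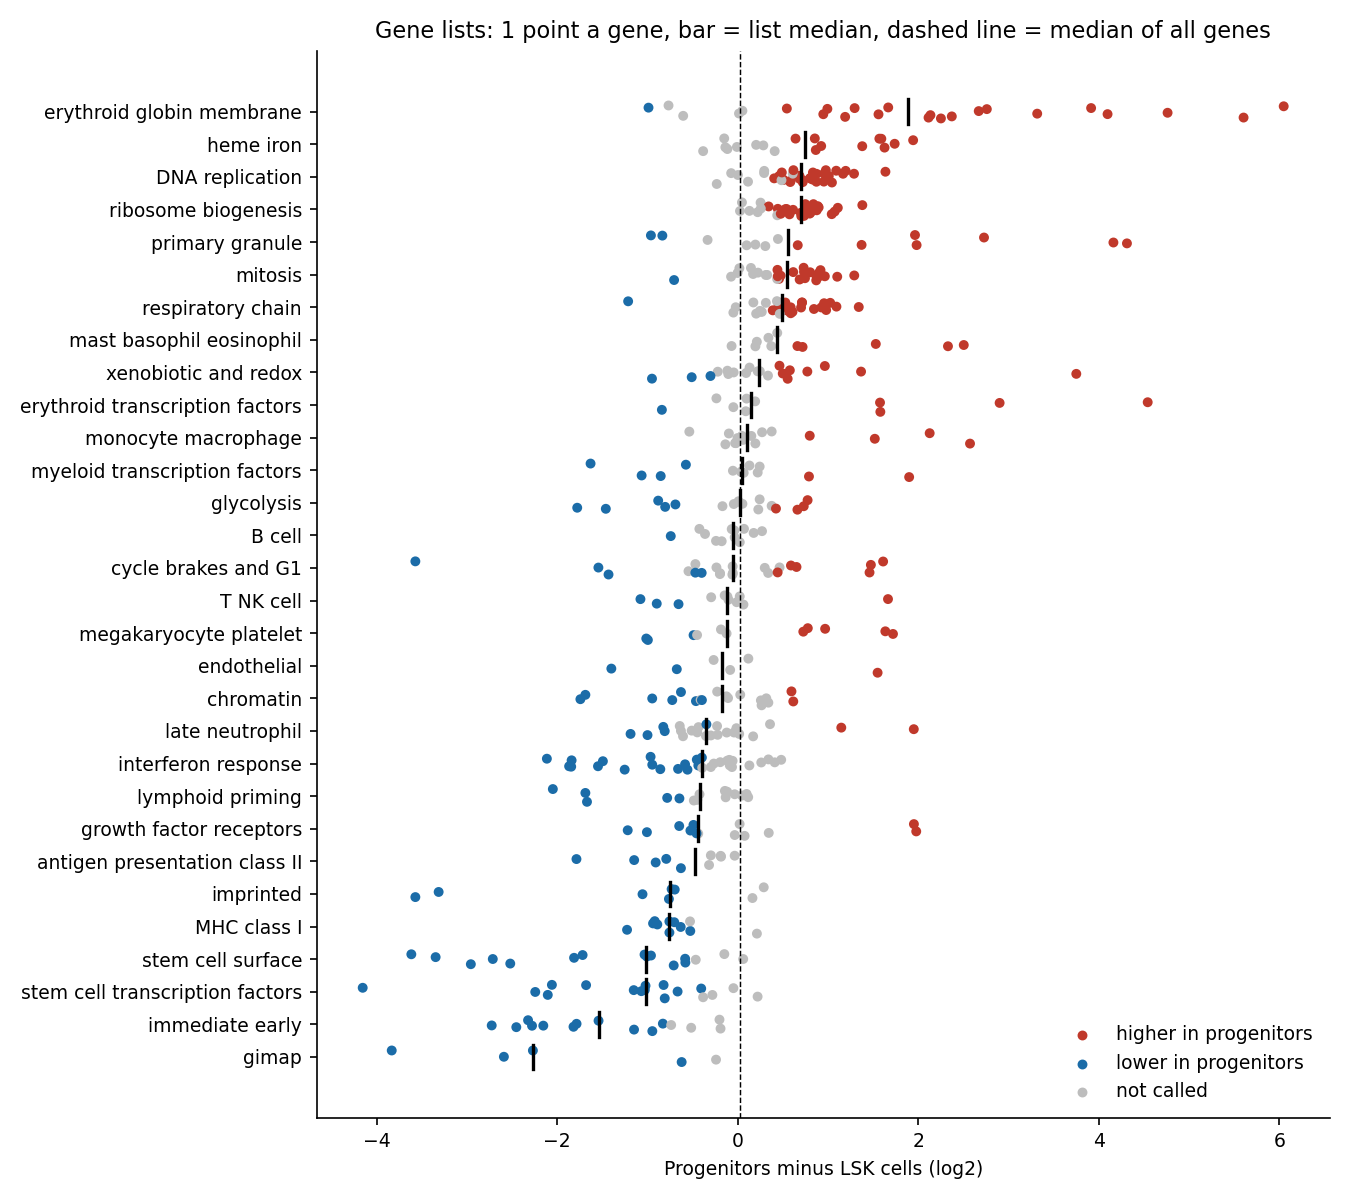
Difference between progenitors and LSK cells on the log2 scale for each tested member of the 30 gene groups with at least 5 tested genes, ordered by their median (black bar), with the median of all genes as a dashed line. Red points were higher and blue points lower in progenitors at an adjusted p under 0.05, and the red cell membrane group lies highest with a median of 1.89 and the Gimap group lowest with -2.27.

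Genes of DNA replication were higher in progenitors. Of 36, 28 were higher and none lower (median 0.70), and 15 did not overlap. Rrm2, the regulated subunit of ribonucleotide reductase, stood at 7.79, 8.27 and 8.63 in progenitors and 4.32, 7.02 and 7.41 in LSK cells (1.64 ± 0.26, 3.11-fold). Mcm10 was 2.44-fold higher (1.29 ± 0.18), Rrm1 2.29-fold (1.20 ± 0.20), the flap nuclease Fen1 2.25-fold (1.17 ± 0.17) and Cdc45, part of the replicative helicase, 2.13-fold (1.09 ± 0.11). Rrm2 and Rrm1 were each detected on 5 of 6 LSK arrays, and the lowest LSK value of Rrm2 lay near background. Within strains, 26 passed in D2 and 15 in B6, and the difference of these counts was not tested. In all, 24 passed with median scaling and 18 passed with 75th percentile scaling.

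Of 28 mitosis genes, 18 were higher and 1 lower (median 0.55). Plk1, the polo kinase, stood at 10.23, 10.58 and 11.04 in progenitors and 8.38, 9.43 and 9.84 in LSK cells (1.29 ± 0.20, 2.45-fold). The centromeric histone Cenpa was 2.15-fold higher (1.10 ± 0.14), Anln 1.95-fold (0.96 ± 0.19), Cdca3 1.89-fold (0.92 ± 0.20) and survivin, Birc5, 1.87-fold (0.90 ± 0.17). The higher count was 11 with median scaling, 9 with 75th percentile scaling, 17 in D2 alone and 6 in B6 alone. Kif23, a motor of cell division, was lower by its brightest probe (-0.71 ± 0.27, adjusted p = 0.0401) while another gave 1.27, and with the mean of its probes the difference was 0.11 (adjusted p = 0.698). Its call also ended with no background correction and the series matrix values (adjusted p = 0.0688), no detection filter (0.127), the 12 arrays alone (0.0658) and without any of 7 single arrays (0.0506 to 0.115).

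Of 22 genes of the first growth phase and its brakes, 6 were higher and 5 lower (median -0.06). These shares, 27.3% and 22.7%, were near the 21.5% and 21.2% over all genes. Apart from Cdkn1c, the lower ones were Ccnd1, cyclin D1, at 5.88, 6.42 and 7.15 in progenitors against 7.46, 8.03 and 8.51 in LSK cells (-1.54 ± 0.19, 2.92-fold), Txnip, a metabolic inhibitor of growth (-1.43 ± 0.17, 2.70-fold), Cdk2 (-0.40) and Mdm2 (-0.47). Rb1, the retinoblastoma protein, was 3.05-fold higher (1.61 ± 0.25), its partner E2f4 2.78-fold (1.48 ± 0.23), and cyclin E1, Ccne1, was detected on 5 progenitor arrays and on no LSK array. Rb1 and E2f4 were each detected on 5 of 6 LSK arrays. Cdkn1a, the inhibitor p21, did not pass (-0.20 ± 0.23, adjusted p = 0.518).

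Ribosome biogenesis and respiration were higher as groups of many small differences. Of 31 ribosome biogenesis genes, 24 were higher and none lower (median 0.70), and 18 did not overlap. Mrto4, a ribosome assembly factor, stood at 7.58, 8.47 and 8.69 in progenitors and 6.29, 7.04 and 7.14 in LSK cells (1.38 ± 0.16, 2.60-fold). Nhp2 was 2.16-fold higher (1.11 ± 0.17), Nop56 2.10-fold (1.07 ± 0.30), Nop2 2.06-fold (1.04 ± 0.20) and Nip7 1.86-fold (0.90 ± 0.15), and the growth regulator Myc 1.39-fold (0.48 ± 0.12). Of the group, 14 passed with 75th percentile scaling, and Nop2 failed with median (adjusted p = 0.113) and 75th percentile (0.27) scaling. Nop56 failed in B6 alone (0.44, adjusted p = 0.486), and Nop56 and Nop2 were each detected on 5 of 6 LSK arrays. Of 36 respiratory chain genes, 25 were higher and 1 lower (median 0.49). Differences of this size depend on the scaling, since the median over all genes was 0.03 as reported and -0.33 with 75th percentile scaling. Cyc1, cytochrome c1, was 2.53-fold higher (1.34 ± 0.19), Sdhb 2.13-fold (1.09 ± 0.23), Ndufa5 2.03-fold (1.02 ± 0.16) and cytochrome c, Cycs, 1.97-fold (0.98 ± 0.16). Uqcrq, a small subunit of the same complex as Cyc1, was 2.32-fold lower (-1.21 ± 0.30). Within strains, 14 passed in D2 and 15 in B6. Sdhb, detected on 5 of 6 LSK arrays, failed with 75th percentile scaling (adjusted p = 0.0714) and in B6 alone (0.72, adjusted p = 0.106).

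Glycolysis did not move one way. Of 16 genes, 4 (25%) were higher and 5 (31.2%) lower (median 0.03), against 21.5% and 21.2% over all genes. The glucose transporter Slc2a1 stood at 6.53, 7.40 and 7.76 in progenitors and 8.41, 8.69 and 9.19 in LSK cells (-1.46 ± 0.19, 2.75-fold lower), and Slc2a3 was 1.75-fold lower (-0.80 ± 0.14). Eno2, an enolase of neurons, was detected on no progenitor array and on all LSK arrays, at least 2.22-fold lower, Aldoc was detected on no progenitor array and 5 LSK arrays, and the pyruvate kinase Pkm was lower by 0.69. Ldha, lactate dehydrogenase A, was 1.58-fold higher (0.66 ± 0.15), Pgam1 1.71-fold (0.77 ± 0.15) and Hk3, a hexokinase of myeloid cells, 1.66-fold (0.73 ± 0.25). With median or 75th percentile scaling 1 gene in place of 4 was higher. Pgam1 (adjusted p = 0.249 and 0.469) and Hk3 (0.0917 and 0.2) were lost there, and Hk3 also without each of D2 LSK replicate 2, D2 progenitor replicate 2 and D2 progenitor replicate 3 (0.0623 to 0.0701), with no detection filter (0.0723) and in the 12 arrays alone (0.0905).

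Of 18 chromatin regulators, 2 were higher and 7 lower (median -0.18). Smarca2, an ATPase of the SWI/SNF remodeller, stood at 8.49, 8.85 and 9.61 in progenitors and 10.47, 10.59 and 11.18 in LSK cells (-1.74 ± 0.19, 3.35-fold lower). The DNA methyltransferase Dnmt3b was 1.93-fold lower (-0.95 ± 0.18) and the polycomb gene Phc1 1.65-fold (-0.73 ± 0.20). Suz12, a core polycomb subunit, was 1.51-fold higher (0.60 ± 0.15), while Bmi1 (-0.11) and Ezh2 (0.34) did not pass. The calls of Cbx8 (-0.63) and Hmgb2 (0.62) each ended with median scaling (adjusted p = 0.185 and 0.102), with 75th percentile scaling (0.157 and 0.194) and without several of the single arrays. Cbx8 was detected on 1 of 6 progenitor arrays, and its LSK values were 7.0 on D2 replicate 2 and 4.70 to 5.25 on the other arrays. Without that array its difference was -0.30 (adjusted p = 0.111). Of 20 xenobiotic and redox genes, 8 were higher and 3 lower (median 0.23). Mt1, a metallothionein that binds zinc and copper, stood at 11.23, 11.87 and 12.04 in progenitors and 6.95, 8.07 and 9.29 in LSK cells (3.75 ± 0.27, 13.5-fold). Its neighbour Mt2 was detected on 4 progenitor arrays and on no LSK array and failed with median (adjusted p = 0.406) and 75th percentile (0.507) scaling. Gstm5, a glutathione transferase, was 2.58-fold higher (1.37 ± 0.23) and Prdx2, the red cell peroxiredoxin, 1.71-fold (0.77 ± 0.17). Abcb1b, a drug efflux pump, was 1.93-fold lower (-0.95 ± 0.23) and Aldh2 1.42-fold (-0.51 ± 0.17, adjusted p = 0.0598 without D2 progenitor replicate 1).

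Outside these groups, the genes of largest difference that were detected on all 12 arrays were as follows. Lmna, which encodes lamins A and C of the nuclear envelope, stood at 9.69, 10.31 and 11.02 in progenitors and 6.54, 6.69 and 7.60 in LSK cells (3.55 ± 0.20, 11.7-fold), and its 4 other kept probes gave 0.98 to 1.91. Samd14 stood at 10.55, 10.66 and 11.07 in progenitors and 6.71, 7.68 and 8.12 in LSK cells (3.26 ± 0.18, 9.61-fold). Slc40a1, the iron exporter ferroportin, stood at 9.81, 10.29 and 10.63 in progenitors and 6.74, 7.46 and 8.14 in LSK cells (2.84 ± 0.16, 7.18-fold). None of the 3 overlapped. Ly6c1, a surface protein of myeloid cells with near-identical family members, was 7.33-fold higher (2.87 ± 0.28), Mns1 6.74-fold (2.75 ± 0.20), Asns, asparagine synthetase, 5.94-fold (2.57 ± 0.21) and Anxa3, an annexin of neutrophils, 5.14-fold (2.36 ± 0.23, its other probe 2.57).

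Among the lower ones, Fcgrt, the neonatal Fc receptor, stood at 5.53, 6.49 and 6.87 in progenitors and 8.16, 9.18 and 9.80 in LSK cells (-2.80 ± 0.17, 6.98-fold). Cnrip1, a partner of the cannabinoid receptor, was 8.31-fold lower by the probe used (-3.06 ± 0.20) and differed by -0.60 by the other, and Zfp608 was 6.46-fold lower (-2.69 ± 0.18) and differed by -0.66 by its other kept probe. Snn, stannin, was 6.56-fold lower (-2.71 ± 0.18) and Maged1 6.50-fold (-2.70 ± 0.20), each with 1 kept probe. In all 5 genes the progenitor arrays lay below the LSK arrays.

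Some genes were detected on all 6 arrays of one cell type and on none of the other. Higher in progenitors were the secretory granule lectin Zg16 (at least 6.26-fold), Csrp3, a LIM protein of muscle (at least 5.13-fold), the sterol transporter Abcg4 (at least 4.93-fold), Tlcd4 (at least 4.86-fold) and Mfsd2b, the sphingosine 1-phosphate exporter of red cells and platelets (at least 4.57-fold). Abcg4 averaged 9.0 in Ter119+ cells and Zg16 4.9, close to background. Lower in progenitors were Foxa3, a forkhead factor of liver and gut (at least 6.07-fold), Bpifb5 (at least 3.76-fold), Zfp532 (at least 3.09-fold), the cytokine kinase Jak1 (at least 2.81-fold), Sult1a1, a sulfotransferase (at least 2.67-fold), and Car11 (at least 2.38-fold). For Foxa3 the LSK arrays ran from 6.73 to 8.51 and no progenitor array exceeded 4.68. Jak1 acts in all blood cells. Its 2 other probes were not kept, and the probe used was at background in Gr1+ (4.2) and Ter119+ (4.3) cells too.

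The difference was also taken in each strain. Within D2 alone 2142 genes passed and within B6 alone 2208, with the spread shared by all groups of the common fit. Arrays of a group were less alike in D2, with a lowest correlation of 0.922 in LSK cells and 0.960 in progenitors. In B6 these were 0.986 and 0.984. The 2 counts thus do not rest on each strain's own spread. The test of the strain difference, D2 minus B6, passed for 77 genes (0.972%), 41 with a positive and 36 with a negative value, and 563 genes had an unadjusted p under 0.05. Among the genes named in the text, besides Adgrl4, Il12a, Phlda2, Mmrn1, Car11 and Mst1r, this held for Grb10 (-0.54 in D2 and 0.87 in B6, adjusted p = 0.0034), Nkg7, a granule protein of cytotoxic cells (2.48 in D2 and 0.85 in B6, adjusted p = 0.042), Tlcd4 (1.92 and 3.74, adjusted p = 0.0034), Foxa3 (-3.80 and -2.39, adjusted p = 0.0021) and Eno2 (-2.47 and -1.09, adjusted p = 0.0053). With median scaling 2 genes passed and with 75th percentile scaling none did. No probe was checked for sequence variants between the strains, so for these genes a change in transcript and a change in how well the probe binds cannot be told apart.

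**Figure D4:**
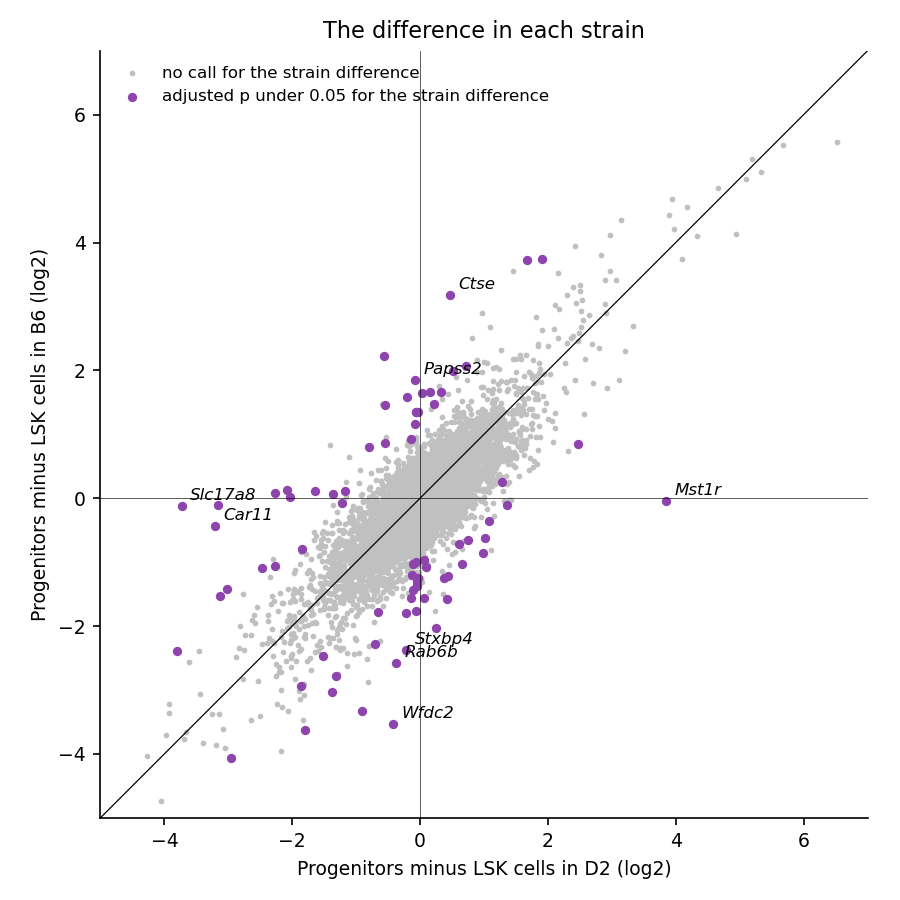
Log2 difference between progenitors and LSK cells in D2 (horizontal axis) against the same difference in B6 (vertical axis), with 1 point a gene and the line of equality. Most genes lie along the line, and the 77 purple points passed for the strain difference, with Mst1r farthest right of the line at 3.85 in D2 and -0.04 in B6.

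Markers of other cells that a gate could hold were measured as well. Of 23 late neutrophil genes, 2 were higher in progenitors and 5 lower (median -0.35). The share lower, 21.7%, was near the 21.2% over all genes, and the share higher was 8.7% against 21.5%. Of the 23, 13 were detected on all progenitor arrays and 14 on all LSK arrays. Hp, haptoglobin, was 3.86-fold higher (1.95 ± 0.29) and the leukotriene receptor Ltb4r1 2.21-fold (1.15 ± 0.19). S100a9 (-1.19 ± 0.28), Camp (-1.0 ± 0.25) and S100a8 (-0.82 ± 0.24), proteins of ripe neutrophils, were lower, with overlapping arrays. S100a8 failed in the 12 arrays alone (adjusted p = 0.0551) and without D2 LSK replicate 2 and D2 progenitor replicate 1 together (0.0611). The number lower was 11 without D2 progenitor replicate 3, 9 without D2 LSK replicate 1, 3 without any of 5 other arrays and 0 in D2 alone. The summed linear level of the 23 ran from 6266 to 39062 in progenitors, highest on D2 replicate 3, and from 12998 to 35972 in LSK cells, highest on D2 replicate 2, against 191471 to 210062 in Gr1+ cells. In B6 it ran from 6266 to 7315 in progenitors and 12998 to 16490 in LSK cells, without overlap. The D2 ranges, 10729 to 39062 in progenitors and 13779 to 35972 in LSK cells, overlapped. The part of mature neutrophils in the granule and immediate early results was not tested.

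Of 12 B cell genes, none was higher and Cd79b was lower (-0.74 ± 0.17), and 7 were detected on no progenitor array. Their summed level ran from 335 to 435 in progenitors and 438 to 523 in LSK cells, against 10336 to 23748 in Ter119+ cells. Of 11 T and NK cell genes, Nkg7 was higher (1.66 ± 0.20) and Lat (-1.08 ± 0.26, detected on 2 of 6 progenitor arrays), Prf1 (-0.90 ± 0.21) and Gata3 (detected on no progenitor array) were lower (median -0.11), and Cd3e and Cd3g were detected on none of the 12 arrays and Cd3d on 2 progenitor arrays and 1 LSK array. Their summed level ran from 638 to 2041 in progenitors and 486 to 1271 in LSK cells, against 1016 to 2223 in Gr1+ cells. Within each strain progenitors lay above LSK cells, at 1449 to 2041 against 1078 to 1271 in B6. In D2 these sums were 638 to 772 against 486 to 545. The brightest probes lead such a linear sum, and Nkg7 averaged 9.61 in progenitors and 7.94 in LSK cells. The sums therefore do not show that the group as a whole was higher in progenitors. Of 6 endothelial genes, Plvap was higher (1.55 ± 0.14, detected on 1 of 6 LSK arrays, adjusted p = 0.076 with 75th percentile scaling) and Egfl7 (-1.40 ± 0.18) and Ramp2 (detected on no progenitor array) lower, and Cdh5, which defines endothelium, was undetected on all 12 arrays. The summed level of these genes ran from 570 to 970 in progenitors and 1016 to 3418 in LSK cells. Of 2 stromal genes tested, Bgn, biglycan, was 12.5-fold lower (-3.64 ± 0.21), at 4.28, 4.96 and 5.73 in progenitors and 7.93, 8.47 and 9.44 in LSK cells, while Col1a1, the collagen that defines stroma, was undetected on all 12 arrays. Cxcl12 was detected on 1 LSK array by the probe used, and another probe, which was not kept, was detected on 2 progenitor arrays and 1 LSK array.

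**Figure D5:**
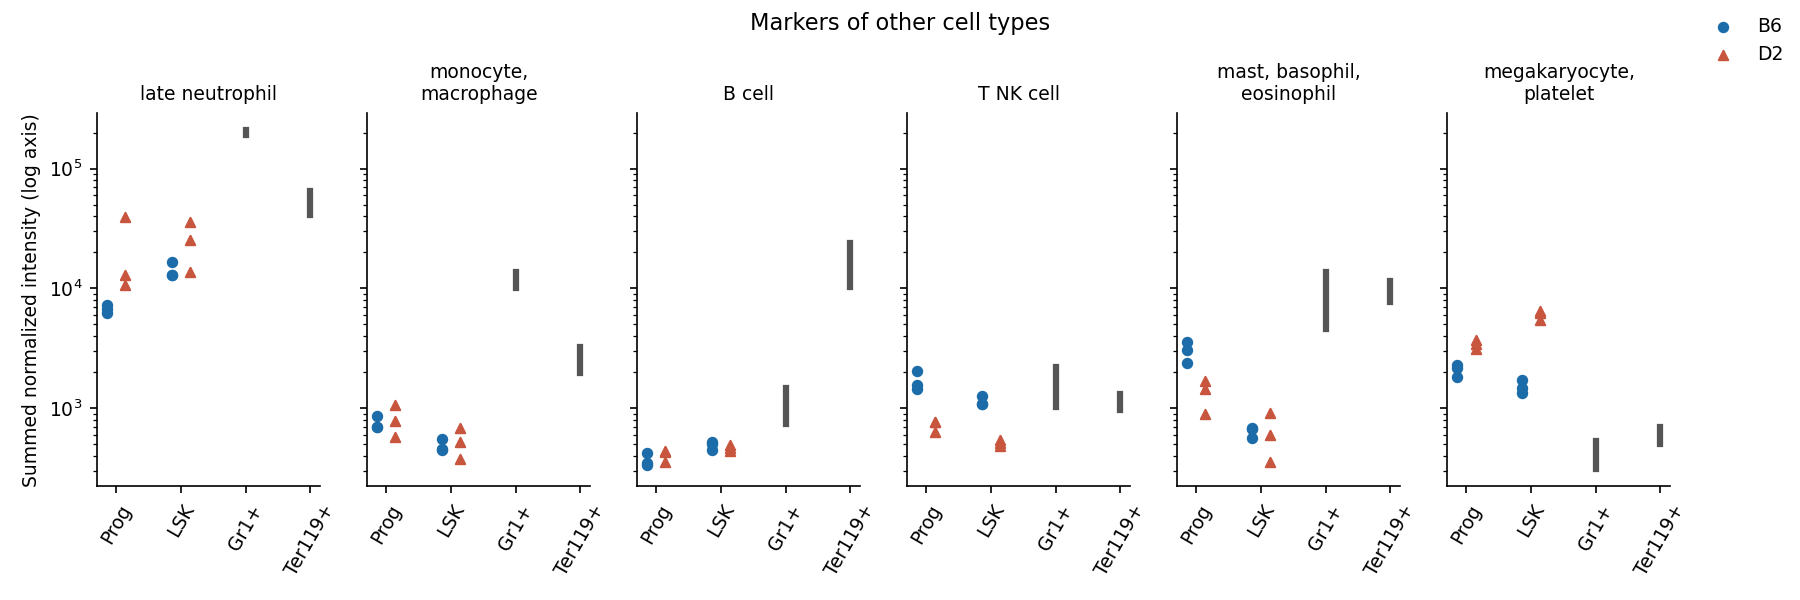
Summed normalized intensity (log axis) of marker genes of 6 other cell types on each progenitor (Prog) and LSK array, B6 as blue circles and D2 as red triangles, with the range in Gr1+ and Ter119+ cells as grey bars. The late neutrophil sum of D2 progenitor replicate 3 reaches 39062, and the B cell sum runs from 335 to 435 in progenitors and from 438 to 523 in LSK cells.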

How the data were processed

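Total RNA of sorted cells was extracted with RNeasy Mini columns, labelled with the Illumina TotalPrep kit and hybridized to Illumina mouse WG-6 v2 bead arrays, per the labels' protocols. The authors deposited raw intensity per probe, exported from GenomeStudio per the submitters' processing notes (version not given in the sources used here), and a detection column, deposited as a fraction that rises with intensity, so that 1 minus it served as detection p. Their deposited series matrix holds log2 values that differ by at most 0.00113 from quantile-normalized log2 raw intensity. A further 24 call columns were not used.

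From the raw intensities, limma 3.58.1 in R 4.3.3 corrected background (neqc, offset 16) and quantile-normalized all 24 arrays. Probes detected at p under 0.01 on all 3 arrays of at least 1 of 8 groups were kept, 12668 of 45281. Of all probes, 34885 have 1 gene in the platform annotation, 18 several and 10378 are not listed there. Symbols were updated through RefSeq, and the kept probe of highest mean stood for each of 7925 genes. One limma model had a mean per strain and cell type. It gave progenitors minus LSK cells, averaged over strains and within each strain, and D2 minus B6 of the values within strains. Tests were two-sided and moderated, with Benjamini-Hochberg adjustment over all genes. An at least N-fold bound compares a group's mean with the lowest detected signal of the other group's arrays, or the probe's own signal there if higher. The scripts were tested on simulated data. The number of arrays, 3 a group, limits the precision.

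The comparison and the gene lists were chosen with earlier results of these data known. Genes were named by rule: the 12 highest and 12 lowest differences among genes detected on all 12 arrays, up to 6 in each direction detected in one cell type alone, and in each list up to 5 called members of largest difference and up to 3 called against its direction, with other members named as values. Alternatives were background, scaling, detection filter, probe choice, a replicate block, array weights, variance model, arrays left out and the difference within each strain. Figures were drawn with matplotlib 3.10.9.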

Additional observations from a re-analysis of the deposited data

Results flagged for a closer look

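The difference between progenitors and LSK cells was itself different in the 2 strains for the following 8 genes, those of smallest p among the 77 that passed once genes with provisional names were left aside, given as D2 minus B6 with limma's adjusted p. For Mst1r, the macrophage-stimulating protein receptor, it was 3.89 ± 0.21 (SE, adjusted p = 3.1e-11), with D2 progenitors at 8.17 to 8.21 and D2 LSK cells at 4.25 to 4.51, against 4.20 to 4.33 in B6 progenitors and 4.21 to 4.43 in B6 LSK cells. Slc17a8, a vesicular glutamate transporter, gave -3.60 ± 0.29, since D2 LSK cells alone stood above background, at 7.60 to 8.79. Wfdc2 gave 3.12 ± 0.26 and Rab6b 2.20 ± 0.28, and in both B6 LSK cells alone were high, at 7.33 to 8.00 and 6.81 to 7.15. Car11 gave -2.77 ± 0.26, with D2 progenitors at 4.21 to 4.49 and D2 LSK cells at 7.05 to 7.97, against 4.26 to 4.52 in B6 progenitors and 4.70 to 4.93 in B6 LSK cells. Ctse, cathepsin E, gave -2.72 ± 0.34, with D2 progenitors at 11.47 to 11.65 and D2 LSK cells at 11.07 to 11.17, against 10.53 to 10.83 in B6 progenitors and 7.03 to 7.86 in B6 LSK cells. Papss2 gave -1.93 ± 0.24, with B6 progenitors alone raised, at 5.85 to 6.49. Stxbp4 gave 2.16 ± 0.29, with B6 LSK cells at 7.19 to 7.48 and the other 3 groups between 4.85 and 5.73. With the mean of its probes the value for Ctse was -1.37 and no longer passed (adjusted p = 0.0993). With median scaling the values kept their signs, with Mst1r at 2.88, Slc17a8 at -2.99, Wfdc2 at 2.67, Car11 at -2.30, Ctse at -2.44, Papss2 at -2.77, Rab6b at 1.68 and Stxbp4 at 1.80, and none passed. The adjusted p of these 8 ran from 0.0547 to 0.981 there, and with 75th percentile scaling from 0.0697 to 0.945. Sequence variants under the probes were not tested.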

How the results depend on the processing

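Background correction, the series matrix values, the variance model, the mean of probes, array weights and a looser detection filter kept the numbers of genes called, higher and lower within 1.5 times. Genes higher numbered 945 with median scaling and 688 with 75th percentile scaling. With detection on all 12 arrays 1880 genes were called, 851 higher and 1029 lower, by construction from fewer genes. Requiring a 2-fold change left 905, 384 higher and 521 lower. Within the common fit, D2 alone gave 2142 calls with 1000 lower, and B6 alone 2208 with 992 higher. Leaving out 1 array gave 3015 to 3602 called, 1529 to 1730 higher and 1486 to 1909 lower. The strain difference passed for 2 genes with median scaling (0 higher, 2 lower), 0 with 75th percentile scaling, 16 with detection on all 12 arrays (9 higher, 7 lower), 41 in the 12 arrays alone (18 and 23) and 204 with array weights (112 and 92). Leaving out 1 array gave 53 to 93 called, 24 to 56 higher and 29 to 50 lower, with 26, 26 and 24 higher without B6 LSK replicate 1, B6 LSK replicate 3 and B6 progenitor replicate 1. The sign turned for Kif23 with the mean of probes (0.11), in B6 alone for Phlda2 (0.12), Mmrn1 (0.014) and Mst1r (-0.044), and in D2 alone for Gimap7 (0.0076) and Papss2 (-0.076). The cause was not tested. As deviations from group means, same-numbered progenitor and LSK arrays of a strain correlated at -0.38 to 0.30 and differently numbered ones at -0.45 to 0.45. Deviations from means of 3 arrays cannot decide whether replicate numbers pair the samples. With the replicate number as a block 3444 genes were called, 1743 higher and 1701 lower, 77 for the strain difference. Of 185 named results, 172 kept their call with median scaling, 170 with 75th percentile scaling and 185 with the block. Signal near background limits the fold of genes detected in 1 cell type.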
